A study of Mus musculus with 45 samples.

Results

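The DNA replication and mitosis genes are 36 named genes that act in chromosome duplication and cell division, followed here in induced pluripotent stem cells (iPSCs) made from different starting cells. Every probe set annotated to 1 of these symbols was taken, and 35 of the 36 genes had one (cyclin gene Ccnb1 had none). They were covered by 58 of 22690 probe sets in the table of passages 4, 6 and 16 and by 69 of 22690 in the table of passage 10. Expression was measured on 45 Affymetrix arrays of mouse iPSC lines, which were derived with a secondary system (as background, one in which the starting cells already carry inducible reprogramming factors). All groups shared that system, growth in serum and LIF on irradiated embryonic fibroblasts, and a preplating step to remove these feeders.

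The arrays form 15 groups of 3 clones. Bone marrow granulocytes of mouse 1 were the source of a group at passage 4 and another at passage 16, and its skeletal muscle precursors of a group at passage 6. From mouse 2, fibroblasts of the tail tip (TTF), splenic B cells, T cells and granulocytes were reprogrammed, each followed at passages 4, 10 and 16. The labels name 1 mouse behind each group, so the p-values measure the spread between clones of 1 animal, and they do not give the animals' strain or age. The values are log2 intensities, a scale on which a difference of 1 is a doubling. Passages 4, 6 and 16 (33 arrays) and passage 10 (12 arrays) were measured on different platforms and normalized separately, so levels are compared only within each of these tables. A difference is called where limma's adjusted p, taken over all 11807 or 12394 genes of the table, is under 0.05. Each error is the model's SE with n = 3 clones a group.

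As background, a cell about to divide first raises D-type cyclins, which with their kinases release E2F factors. E2F then switches on the MCM helicase, its loaders and the enzymes that make nucleotides. Genes for mitosis follow later in the cycle under control that uses CCAAT boxes and a cell cycle homology region. Pluripotent cells divide fast with a short G1 phase, and replication and mitosis genes are known to be highly expressed in them.

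The promoters of the genes carry these elements to unequal extents. RefSeq promoter windows (GRCm38.p6, 250 bases before to 50 after the gene start, 300 bases) were at hand for 30 of the 36 genes, as 32 windows. The NF-Y box, searched as CCAAT on both strands, was in 26 of 32 windows (81.2%) against 37.4% of all 32851 windows. The cell cycle homology region, searched as TTTGAA on both strands, was in 12 of 32 (37.5%) against 17.9%. It was in 11 of the 16 windows (68.8%) of the genes of the S-to-M cyclins, mitosis and chromosome groups and in 1 of 10 of the replication genes. The E2F site, searched as TTTCCCGC, TTTCGCGC, TTTGCCGC or TTTGGCGC on both strands, was in 7 of 32 (21.9%) against 2.26%, and in 6 of the 10 replication windows (60.0%). The genes share cell cycle function by choice, so these shares describe the list and are not a test.

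The 4 windows below belong to genes whose values recur in the results: a helicase subunit, a mitotic cyclin, the proliferation marker Mki67, and the formin gene Diaph3. Each is printed 5′ to 3′ on the gene's strand, and capitals mark the searched letters on either strand. In Mcm5 the first run of capitals holds a pair of overlapping E2F matches on opposite strands.
Mcm5, chr8:75109259-75109558, plus strand: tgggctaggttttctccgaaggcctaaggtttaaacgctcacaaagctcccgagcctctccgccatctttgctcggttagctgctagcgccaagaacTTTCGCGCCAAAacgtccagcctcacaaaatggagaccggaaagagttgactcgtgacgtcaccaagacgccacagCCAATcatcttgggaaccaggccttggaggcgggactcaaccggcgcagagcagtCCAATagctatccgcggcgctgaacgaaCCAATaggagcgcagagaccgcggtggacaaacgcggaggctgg
Ccnb2, chr9:70421505-70421804, minus strand: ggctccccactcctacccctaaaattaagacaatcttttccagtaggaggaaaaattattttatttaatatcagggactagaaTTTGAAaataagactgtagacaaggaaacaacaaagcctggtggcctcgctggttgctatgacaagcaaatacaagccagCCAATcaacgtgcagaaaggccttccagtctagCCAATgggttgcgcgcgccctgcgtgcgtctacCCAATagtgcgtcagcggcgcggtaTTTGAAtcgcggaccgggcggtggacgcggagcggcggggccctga
Mki67, chr7:135716330-135716629, minus strand: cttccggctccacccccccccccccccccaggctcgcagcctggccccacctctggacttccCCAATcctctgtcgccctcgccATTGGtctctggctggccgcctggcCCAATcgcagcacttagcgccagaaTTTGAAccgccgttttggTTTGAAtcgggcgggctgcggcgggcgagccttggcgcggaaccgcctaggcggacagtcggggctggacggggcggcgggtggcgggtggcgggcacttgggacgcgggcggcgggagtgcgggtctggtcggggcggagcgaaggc
Diaph3, chr14:87141175-87141474, minus strand: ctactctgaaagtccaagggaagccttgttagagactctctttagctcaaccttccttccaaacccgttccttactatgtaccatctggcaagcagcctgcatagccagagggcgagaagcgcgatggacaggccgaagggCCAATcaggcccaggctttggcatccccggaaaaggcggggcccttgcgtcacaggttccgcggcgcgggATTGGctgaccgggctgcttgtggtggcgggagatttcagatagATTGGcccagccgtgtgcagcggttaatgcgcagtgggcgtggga
Mcm5 combines E2F letters with 3 NF-Y boxes and no homology region. Ccnb2 and Mki67 each hold 3 NF-Y boxes and 2 homology regions and no E2F letters. Diaph3 holds 3 NF-Y boxes alone. A match is a description of letters and not a shown binding site.

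The cell identity of the lines was checked first. Group means of a list of pluripotency markers lay between 11 and 11.54 in the 33 arrays and between 12.67 and 12.76 at passage 10. A list of fibroblast markers, which feeder cells left after preplating or fibroblast-like cells would carry, had group means from 6.96 to 7.84 and from 8.14 to 9.20. A list of endoderm markers had group means from 5.14 to 6.99 and from 6.06 to 6.50. Fibroblast markers moved with several results below, and their values are given beside them. In bulk RNA, fewer cells of a type and less RNA per cell cannot be told apart. Granulocyte clone 3 of passage 16 from mouse 2 stood apart: its pluripotency mean was 10.54 against 11.21 and 11.26 in the other clones of its group, and 19 of the 35 genes had their lowest value of 33 arrays there. The share of all genes lowest there is not given, so whether this count is particular to the list was not tested. The correlation of this array with its group was also the lowest of the 33, at 0.922 against 0.960 and 0.956 for the other clones.

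Within the list, some genes were steady and others varied by several units. Over the 33 arrays, the topoisomerase gene Top2a spanned only 0.451 and the licensing factor Cdt1 0.561, while the cyclin gene Ccnd2 spanned 3.64, the thymidylate synthase gene Tyms 2.84, Ccnd1 2.78 and Diaph3 2.69. The wide ranges of the kinesin gene Cenpe (3.67), the kinase genes Aurka (3.21) and Ttk (2.96) and Plk1 (2.95) rested in large part on the single granulocyte clone. Aurka, for instance, was 7.65 in that clone and at least 9.79 in the other 32 arrays, and Plk1 was 6.48 against at least 8.48. At passage 10 the helicase gene Mcm7 spanned 0.101 and Cdt1 0.103, while Ccnd2 spanned 2.65 and Ccnd1 1.20. Cenpe spanned 3.80 there, but as a dim probe set whose 3 TTF values alone ran from 5.06 to 8.33.

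The genes moved together only in part. The median correlation between pairs of them was 0.33 over the 33 arrays, 0.233 over the 32 without the granulocyte clone, and 0.079 over the 12 arrays of passage 10. For deviations from the group means it was higher, 0.496 over the 33 arrays and 0.306 without that clone. These are descriptions over arrays that share groups and scaling. The genes whose values followed the mean of the rest most closely over the 33 arrays were Gmnn (r = 0.892), which encodes the licensing inhibitor geminin, the ribonucleotide reductase gene Rrm1 (0.865), Plk1 (0.863) and Mcm3 (0.861). Mcm2, a subunit of the same helicase as Mcm3, ran the other way for its brightest probe set (r = -0.352). A second Mcm2 probe set changed differently with passage, as given below, so this value may not hold for the gene. Kif11 was also negative (-0.115), and Mki67 (0.072) and Cenpa (0.080) hardly followed.

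**Figure D1:**
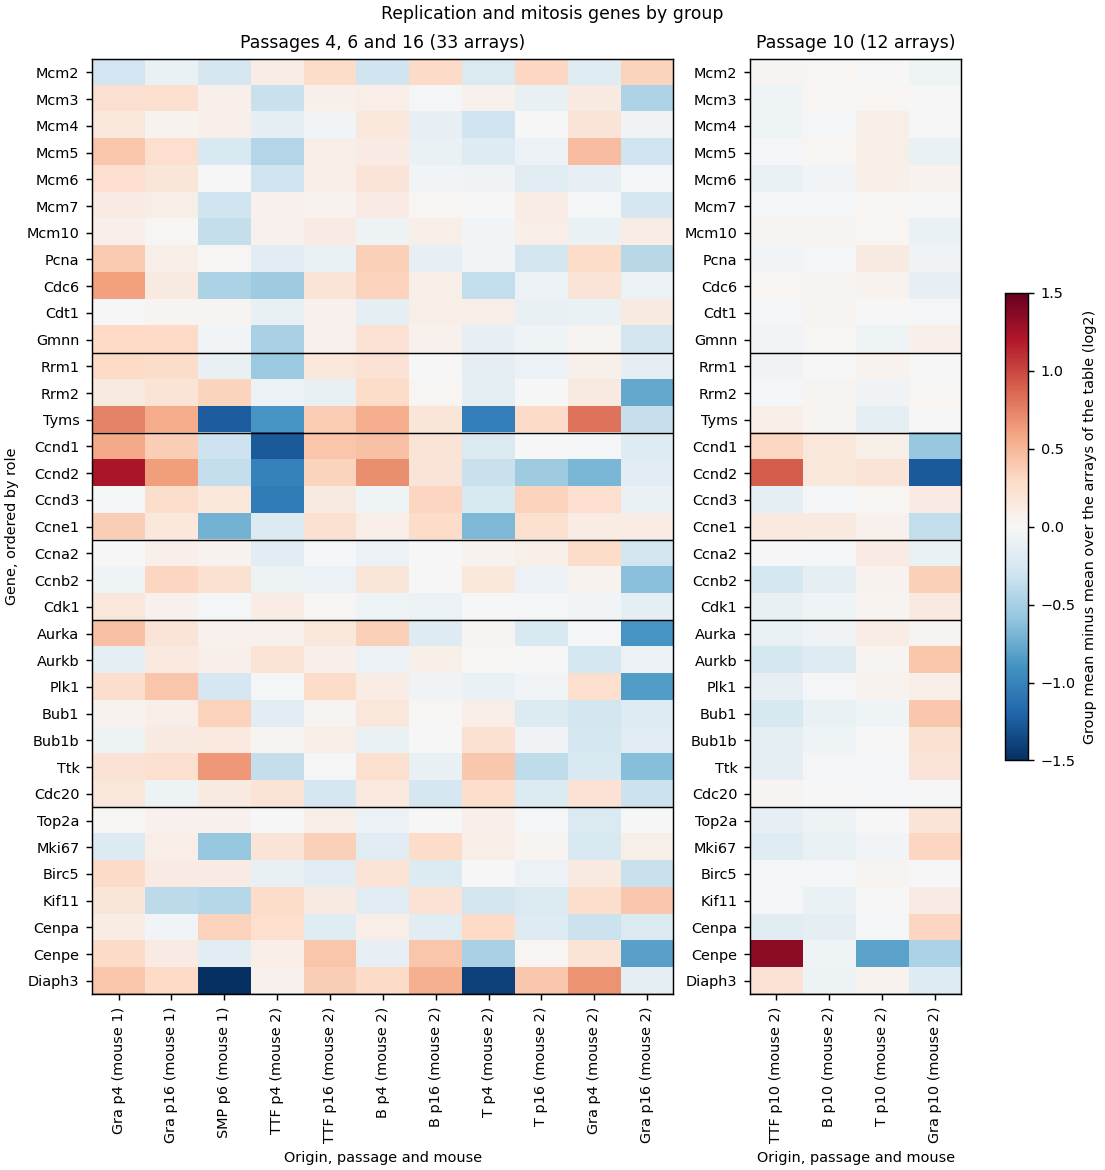
Mean log2 level of each of the 35 genes in each of the 15 groups, shown as the difference from that gene's mean over the arrays of its own table; genes are in rows by role, groups in columns, and the colour scale is capped at its ends. Ccnd1, Ccnd2, Tyms and Diaph3 vary most between groups of passages 4 and 6, and Ccnd2 varies most at passage 10.

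The first comparison asked whether iPSC lines from 4 starting cell types of mouse 2 differ early, at passage 4. By limma's F-test, 12 of 35 genes (34.3%) differed among the origins, where 39% of all 11807 genes did, so the list differed about as often as other genes. The differences were unevenly spread over roles. All 4 G1 cyclins were called: Ccnd1 (adjusted p = 0.00024), Ccnd2 (0.0016), Ccnd3 (0.00018) and Ccne1 (0.011). Of the replication genes, 4 of 11 were called (Mcm4, Mcm5, Cdc6 and Gmnn), and of the nucleotide synthesis genes 2 of 3 (Rrm1 and Tyms). None of the 3 S-to-M cyclin and Cdk1 genes and none of the 7 mitotic kinase and checkpoint genes was called by limma, while 2 of 7 chromosome and cytokinesis genes were (the centromere histone gene Cenpa and Diaph3). Over the whole list 16 genes had an unadjusted p under 0.05. The widest ranges of group means were those of Diaph3, which encodes an actin-nucleating formin with a role in cytokinesis (2.08, adjusted p = 2.6e-07), and of Tyms (1.85, 1.5e-05).

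**Figure D2:**
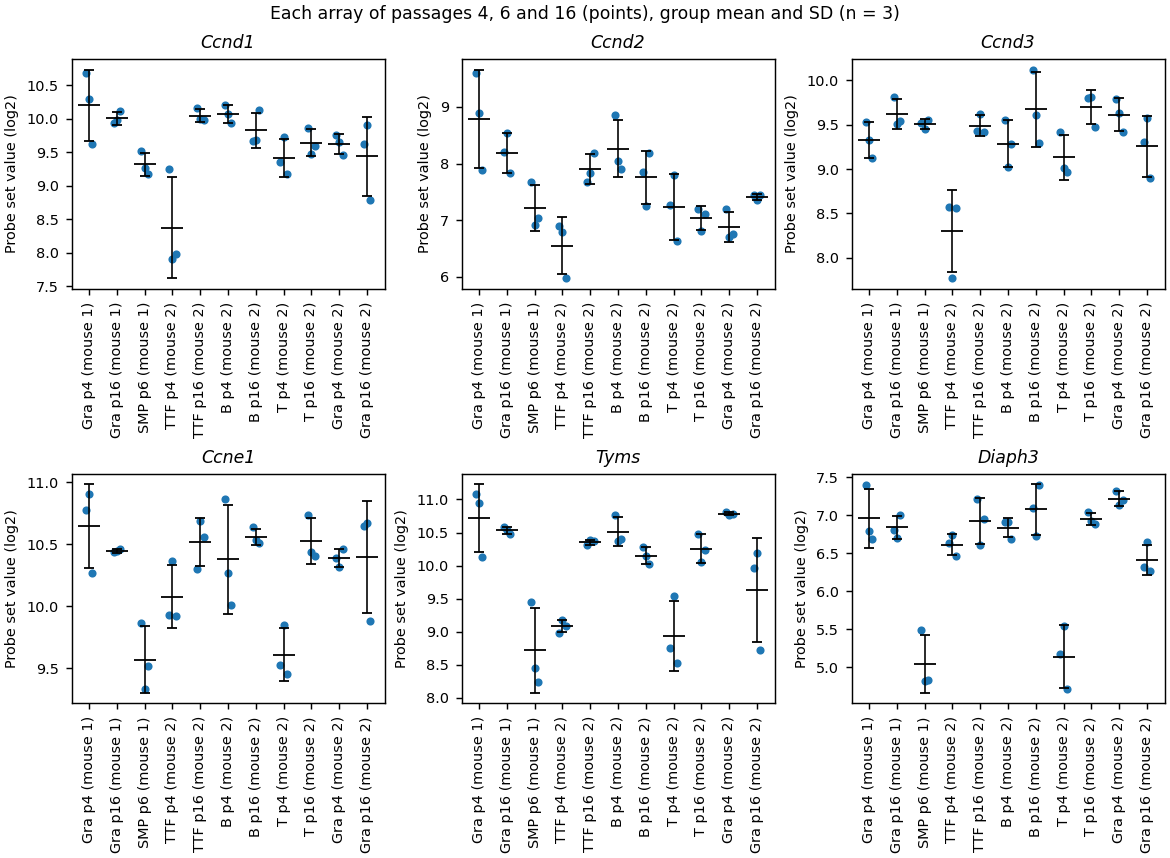
Log2 probe set value (y axis) of Ccnd1, Ccnd2, Ccnd3, Ccne1, Tyms and Diaph3 in the 11 groups of passages 4, 6 and 16 (x axis), with 1 point per clone and bars for the group mean and SD (n = 3). In mouse 2 at passage 4 the TTF clones lie low for the D-type cyclins and the T cell clones lie low for Diaph3 and Ccne1, as do the muscle precursor (SMP) clones of mouse 1.

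TTF lines at passage 4 had the lowest group means of all 3 D-type cyclins among the origins of mouse 2. Ccnd1, which couples growth signals to entry into S phase, was 9.25, 7.90 and 7.98 in the 3 TTF clones, and 9.17, 9.73 and 10.20 as the lowest, median and highest of the 9 other clones. Clones 2 and 3 lay below every other clone and clone 1 lay inside their range, and the mean was lower by 1.33 ± 0.232 (log2, adjusted p = 0.00021), or 2.51-fold. Ccnd3, a related D cyclin, was 8.58, 7.77 and 8.56 in TTF clones against 8.96, 9.42 and 9.79 as the lowest, median and highest of the others. The sides did not overlap, and the log2 difference was -1.04 ± 0.176 (limma, adjusted p = 0.00015). Ccnd2 was 6.89, 6.79 and 5.97 in TTF clones against a range of 6.63 to 8.85, so these sides overlapped, with a log2 difference of -0.91 ± 0.285 (limma, adjusted p = 0.024). Only 1 of 6 Ccnd2 probe sets was called there, the others lying between -0.51 and 0.41, and 2 of 3 Ccnd1 probe sets were called.

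The same TTF lines were lower for 2 of 3 nucleotide synthesis genes (Rrm1 and Tyms, with Rrm2 at -0.17, adjusted p = 0.7 by limma) and 2 of 11 replication genes (Gmnn and Cdc6). Rrm1, the large subunit of the enzyme that makes deoxynucleotides, was 9.45, 8.75 and 9.47 in TTF clones and 9.53, 9.83 and 10.26 as the lowest, median and highest of the others. All TTF clones lay below the others, with a log2 difference of -0.61 ± 0.174 (limma, adjusted p = 0.013). Gmnn, which blocks a repeat of licensing, was 10.57, 10.28 and 10.82 against 10.83, 11.06 and 11.43. The sides just failed to overlap, with a log2 difference of -0.53 ± 0.158 (limma, adjusted p = 0.017). Without TTF clone 2 the values of Rrm1 (-0.38, adjusted p = 0.25) and Gmnn (-0.39, adjusted p = 0.2) were no longer called, and the count of called genes was 4. Tyms (-0.99 ± 0.247, adjusted p = 0.005) and the helicase loader gene Cdc6 (-0.59 ± 0.18, adjusted p = 0.02) were also called by limma.

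In all, 7 of 35 genes were lower in TTF lines and 0 were higher, against 7.85% of all genes lower and 11.7% higher. The median log2 difference was -0.15 over the list and 0.06 over all genes. None of the 17 S-to-M, mitotic kinase and chromosome genes was called by limma, with 1 at an unadjusted p under 0.05. Their log2 differences ran from -0.49 (Ttk, adjusted p = 0.21) to 0.33 (Kif11, adjusted p = 0.28), with Mki67 at 0.28 (adjusted p = 0.13) and Top2a at 0.08 (adjusted p = 0.62). From a wider list of 33 other replication genes, 6 were lower and none higher, led by the thymidine kinase gene Tk1 (-0.72), the polymerase subunit gene Pole2 (-0.72) and the helicase cofactor gene Cdc45 (-0.71). Of 37 other mitosis genes, 6 were higher and 2 lower, with Kif23 at -1.19 and Cenpf at 0.91. Among 7 inhibitors of cyclin-dependent kinases, Cdkn2b (p15) was higher by 1.59 (adjusted p = 6.6e-05) and Cdkn1a (p21) by 0.72 (adjusted p = 0.0043), in the limma fit. Fibroblast markers were low in these lines: their list mean was 6.97 ± 0.086 (SD, n = 3), and 6 of 21 were called lower and 0 higher. Adding the mean of these markers to the fit as a covariate gave 2 called genes in TTF lines, and Rrm1 (adjusted p = 0.057) and Gmnn (adjusted p = 0.053) missed the threshold.

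B cell lines at passage 4 had the highest Ccnd1 and Ccnd2 of the 4 origins, but not the highest Ccnd3. Ccnd2 was 8.85, 8.04 and 7.90 in the B cell clones and 5.97, 6.79 and 7.80 as the lowest, median and highest of the 9 others. Every B cell clone lay above the rest, and the log2 difference was 1.38 ± 0.285 (limma, adjusted p = 0.003). Ccnd1 was 10.20, 10.07 and 9.93 against 7.90, 9.35 and 9.75, again without overlap, with a difference of 0.93 ± 0.232 (limma, adjusted p = 0.011). Tyms (0.91, adjusted p = 0.018) and Cdc6 (0.58, adjusted p = 0.038) were also called by limma, so that 4 of 35 genes were higher and 0 lower. Over all genes, 3.8% were higher and 6.34% lower. Without B cell clone 1 the count was 0 and without clone 2 it was 1. Over the mean of all its probe sets, Ccnd2 differed by 0.61 (adjusted p = 0.12) and Ccnd1 by 0.69 (adjusted p = 0.051). Of the other replication genes 3 of 33 were higher, namely Tk1 (0.76), Gins1 (0.69) and Rfc1 (0.61), and Cdkn2b was lower (-0.998 on the log2 scale, adjusted p = 0.012). The fibroblast list mean was 6.96 ± 0.0589 (SD, n = 3), with 5 of 21 markers lower, and both cyclins stayed called when that mean was a covariate (adjusted p = 0.00069 and 0.025, limma).

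T cell lines at passage 4 lacked most of the Diaph3 signal of the other lines. Diaph3 was 5.17, 5.54 and 4.71 in the T cell clones and 6.47, 6.91 and 7.32 as the lowest, median and highest of the 9 others. The gap between the sides was wider than the spread of either, and the log2 difference was -1.75 ± 0.175 (limma, adjusted p = 1.4e-07), or 3.36-fold. Ccne1, the cyclin that starts S phase, was 9.53, 9.85 and 9.45 against 9.93, 10.32 and 10.87. The sides did not overlap, with a log2 difference of -0.67 ± 0.174 (limma, adjusted p = 0.0066), which was -0.59 (adjusted p = 0.056) without T cell clone 3. Tyms was 8.75, 9.54 and 8.53 in T cell clones and overlapped the TTF clones at 8.99, 9.18 and 9.09, with a log2 difference of -1.19 ± 0.247 from all others (limma, adjusted p = 0.00099).

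With Mcm4 (-0.37, adjusted p = 0.048), 4 of 35 genes were lower and 0 higher in T cell lines by limma, against 6.42% of all genes lower and 12.3% higher, and without T cell clone 3 the count was 2. The other replication genes went both ways, with Cdc7 (0.88) and Pold1 (0.71) among 4 higher and Rfc5 (-0.56) among 2 lower of 33. The pocket protein gene Rbl2, which restrains E2F targets, was higher by 1.03, and Cdkn1a was higher by 0.89 (adjusted p = 0.00056). Here the fibroblast list mean was high, at 7.78 ± 0.11 (SD, n = 3), with 10 of 21 markers called higher and 0 lower. Diaph3 and Ccne1 stayed called when that mean entered the fit as a covariate.

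Granulocyte lines at passage 4 held the highest Tyms and Diaph3 of mouse 2. Tyms was 10.81, 10.77 and 10.78 in the granulocyte clones and 8.53, 9.18 and 10.76 as the lowest, median and highest of the others, the top B cell clone lying just below them. The log2 difference was 1.27 ± 0.247 (limma, adjusted p = 0.0004). Diaph3 was 7.32, 7.14 and 7.20 against 4.71, 6.63 and 6.92, without overlap, with a difference of 1.02 ± 0.175 (limma, adjusted p = 0.00011). Cenpa, which marks the centromere, ran the other way, at 9.96, 10.05 and 10.15 against 10.40, 10.63 and 10.74. Its difference was -0.54 ± 0.128 (limma, adjusted p = 0.0028), and again the sides did not overlap.

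With Ccnd3 (0.71) and Mcm5 (0.63), 4 of 35 genes were higher and 1 lower in granulocyte lines, against 8.33% and 14.8% of all genes. Cdkn1a was lower than in the other origins, with a log2 difference of -1.25 (limma, adjusted p = 9.9e-06), and so were Rbl2 (-0.98) and the retinoblastoma gene Rb1 (-0.95). No other replication gene of 33 was higher by limma and 4 were lower, led by Cdc7 (-0.66). The fibroblast list mean was 7.35 ± 0.0526 (SD, n = 3), with 3 of 21 markers higher and 4 lower, and 5 of the 35 genes were called with that mean as a covariate. The 4 contrasts of passage 4 share their arrays, since each origin also serves in the mean that the other origins are set against.

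The call of Tyms rests on a single probe set of 4. That probe set, the brightest (mean 9.97), is listed for both Tyms and a pseudogene, Tyms-ps, in the annotation of the passage 10 platform, so its signal may include both and it was not used there. The other 3 Tyms probe sets were dim, at means of 3.80 to 5.25, and none was called in these contrasts. Ccnd3, Ccne1 and Diaph3 each have 1 probe set.

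At passage 16 the 4 origins were no longer separated for these genes. None of 35 was called by limma's F-test at passage 16, where 1.52% of all genes were, and 3 (Diaph3, Plk1 and Cenpe) had an unadjusted p under 0.05. The ranges of the group means were 0.60 for Ccnd1, 0.86 for Ccnd2, 0.44 for Ccnd3, 0.73 for Tyms and 0.66 for Diaph3, with adjusted p from 0.18 to 0.4. The widest ranges of the list were those of Cenpe (1.24), Plk1 (1.11) and Aurka (1.06), with adjusted p from 0.19 to 0.25 by limma. All of these were lowest in granulocyte clone 3. None of the other replication, mitosis, regulator and inhibitor genes was called either. Without granulocyte clone 2 of passage 16, 5 of the 35 were called. A p that misses the threshold does not show equal levels.

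The comparison of passages asked how the lines of mouse 2 changed between passages 4 and 16. Over the 4 origins, 5 of 35 genes were higher at passage 16 and 3 lower, against 16.6% and 12.4% of all genes, and all 8 overlapped between passages. Mcm2 was higher by 0.45 ± 0.0986 (limma, adjusted p = 0.0014) and in 4 of 4 origins, and Ccne1 by 0.39 ± 0.106 (adjusted p = 0.0079), also in 4 of 4. The Mcm2 rise holds for its brightest probe set (mean 10.59) only. A second one (mean 10.56) was at 0.68 in TTF, -0.27 in B cell and 0.01 in T cell lines, none of them called. In granulocyte lines that second probe set was called lower, as given below. Ccnd3 (0.45, adjusted p = 0.003), Diaph3 (0.39, adjusted p = 0.0081) and Mki67 (0.21, adjusted p = 0.045) were higher in 3 of 4 origins by limma. The anaphase activator gene Cdc20 fell in 4 of 4 origins, by 0.47 ± 0.11 on the log2 scale (limma, adjusted p = 0.0022). The sliding clamp gene Pcna (-0.34, adjusted p = 0.0093) and Cenpa (-0.27, adjusted p = 0.011) fell in 3 of 4 by limma.

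Of 37 other mitosis genes, 12 were lower at passage 16, 1 was higher and 24 were not called, led by the cytokinesis kinesin gene Kif23 (-1.30, adjusted p = 7.1e-05 by limma), Ckap2 (-0.84) and Kif18a (-0.74). Of 33 other replication genes 9 were higher and 2 lower, with Rfc3 at -0.73 and Ung at 0.65. Cdkn1a was lower at passage 16 (-0.59) and Cdkn2a (0.46) and Cdkn1b (0.36) were higher. Fibroblast markers also moved, 10 of 21 higher and 2 lower, and with their list mean as a covariate 2 of the 35 genes were called over the 4 origins.

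**Figure D3:**
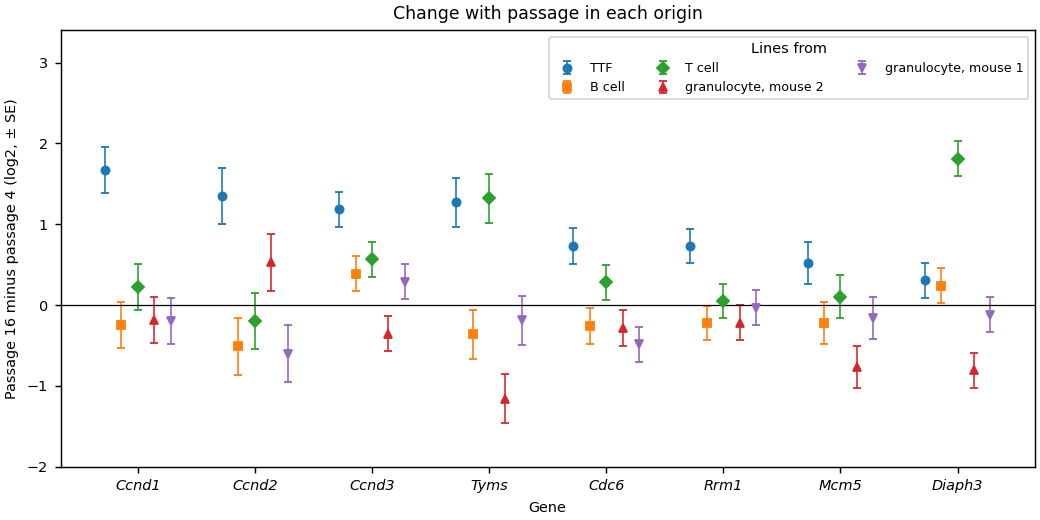
Log2 difference of passage 16 from passage 4 (y axis) for the 8 genes (x axis) whose change depended on the origin, with 1 point for each origin of mouse 2 and for the granulocyte lines of mouse 1, and bars for the SE of the fit. TTF and T cell points lie above 0 for Tyms, and the granulocyte points of mouse 2 lie below 0 for Tyms, Mcm5 and Diaph3.

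The change with passage depended on the origin for 8 of 35 genes (22.9%) by limma's interaction test, where 32.8% of all genes did. They were Diaph3 (adjusted p = 6.8e-06), Tyms (9.8e-05), Ccnd1 (0.0016), Ccnd3 (0.003), Ccnd2 (0.018), Cdc6 (0.03), Rrm1 (0.039) and Mcm5 (0.044). Without granulocyte clone 3 of passage 16 the count was 13, without clone 2 of that group it was 15, and without any 1 of TTF clones 2 and 3 of passage 16, granulocyte clone 1 of passage 4 or B cell clone 2 of passage 4 it was 5.

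TTF lines gained D cyclins between passages 4 and 16. Ccnd1 was 9.25, 7.90 and 7.98 at passage 4 and 10.15, 9.997 and 9.98 at passage 16. The 3 later clones lay above the earlier ones and close to each other, with a rise of 1.67 ± 0.284 (limma, adjusted p = 0.00023), or 3.18-fold. Ccnd2 rose from 6.89, 6.79 and 5.97 to 7.67, 7.83 and 8.19, by 1.35 ± 0.349 (limma, adjusted p = 0.011). Ccnd3 rose from 8.58, 7.77 and 8.56 to 9.43, 9.62 and 9.41, by 1.18 ± 0.216 (limma, adjusted p = 0.00048). For all 3 genes the passages did not overlap.

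Tyms in TTF lines rose from 8.99, 9.18 and 9.09 to 10.31, 10.39 and 10.36, by 1.27 ± 0.302 (limma, adjusted p = 0.0058), with tight clones on both sides. Cdc6 (0.73) and Rrm1 (0.73) were called too, making 6 of 35 (17.1%) higher and 0 lower against 5.76% and 6.43% of all genes. This comparison shares the TTF arrays of passage 4 with the comparison of origins above, so the low starting values enter both. Cdkn2b (-1.01) and Cdkn1a (-0.96) fell, and of the other replication genes 6 of 33 rose, led by Tk1 (1.03), Prim2 (0.77) and Pold1 (0.74). Fibroblast markers rose in the same arrays, 11 of 21 higher and 1 lower, from a list mean of 6.97 to 7.67. With that mean as a covariate 1 of the 35 genes was called, and Ccnd1 (1.14, adjusted p = 0.16), Ccnd2 (0.19, adjusted p = 0.92) and Tyms (0.76, adjusted p = 0.46) were not. The marker mean did not overlap between these passages, so the fit cannot separate it well from passage. Without TTF clone 3 of passage 16 the count was 3. Ccnd2 was not called without that clone (1.20, adjusted p = 0.056), without TTF clone 3 of passage 4 (1.06, adjusted p = 0.078) or over the mean of its probe sets (0.81, adjusted p = 0.082).

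T cell lines gained Diaph3, Tyms and Ccne1. Diaph3 rose from 5.17, 5.54 and 4.71 at passage 4 to 7.05, 6.93 and 6.89 at passage 16, a rise of 1.81 ± 0.215 (limma, adjusted p = 2.6e-06), or 3.51-fold. Tyms rose from 8.75, 9.54 and 8.53 to 10.48, 10.05 and 10.24, by 1.32 ± 0.302 (limma, adjusted p = 0.0028). Ccne1 rose from 9.53, 9.85 and 9.45 to 10.74, 10.44 and 10.40, by 0.91 ± 0.213 (limma, adjusted p = 0.0033). In each case all 3 later clones exceeded all earlier ones. With every probe set on its own, a dimmer Ccnd1 probe set (mean 7.438) was called higher (1.40, adjusted p = 0.0023 by limma). It was at 1.39 in TTF lines. The brightest Ccnd1 probe set was at 0.22 in T cell lines and not called. A dimmer Mcm3 probe set was also called higher (0.59, adjusted p = 0.019 by limma), where the brightest was at -0.18.

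Cenpa fell in T cell lines, from 10.63, 10.74 and 10.63 to 10.33, 10.20 and 9.9996, by 0.49 ± 0.157 on the log2 scale (limma, adjusted p = 0.031). It lost its call when any 1 of 5 of the 6 clones was left out, with an adjusted p of up to 0.14. In all, 3 of 35 genes rose and 1 fell, against 7.49% and 10.4% of all genes. Cdkn1a fell by 1.44 (adjusted p = 4.2e-05 by limma). Fibroblast markers fell here, 8 of 21 lower and 0 higher, from a list mean of 7.78 to 7.07, where in TTF lines they rose. Diaph3, Tyms and Ccne1 stayed called with that mean as a covariate, and Cenpa did not (adjusted p = 0.17).

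In B cell lines 0 of 35 genes was called with passage by limma, against 5.51% of all genes higher and 2.49% lower, and 3 had an unadjusted p under 0.05. These were Mcm2 (0.59, adjusted p = 0.064), Mki67 (0.43, adjusted p = 0.097) and Pcna (-0.48, adjusted p = 0.12). With every probe set on its own, a dimmer second Rrm1 probe set (mean 6.555) was called lower (-2.67, adjusted p = 0.0055 by limma). The brighter Rrm1 probe set was at -0.22 and not called. Without B cell clone 1 of passage 16, 1 gene was called. Cdkn2b rose by 1.14 (limma, adjusted p = 0.022).

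In granulocyte lines of mouse 2, more of the genes fell than rose, and the count rested on clone 3 of passage 16. Tyms fell from 10.81, 10.77 and 10.78 to 9.96, 10.19 and 8.73, the last being clone 3, with a log2 difference of -1.16 ± 0.302 (limma, adjusted p = 0.0051). Without that clone it was -0.71 (adjusted p = 0.072). Diaph3 fell from 7.32, 7.14 and 7.20 to 6.32, 6.64 and 6.27, by 0.81 ± 0.215 on the log2 scale (limma, adjusted p = 0.0057), and without clone 3 the difference was -0.74 (adjusted p = 0.027). All 3 later clones lay below all earlier ones for both genes.

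Mcm5 was 10.87, 10.72 and 10.75 at passage 4 and 10.19, 10.60 and 9.26 at passage 16 in granulocyte lines, with a log2 difference of -0.76 (limma, adjusted p = 0.026) that was -0.39 (adjusted p = 0.3) without clone 3. Pcna was 12.70, 12.71 and 12.59 and then 12.14, 12.38 and 11.39, with -0.69 (limma, adjusted p = 0.0072), or -0.40 (adjusted p = 0.094) without clone 3. In both genes the later clones lay below the earlier ones and clone 3 lay farthest. Mcm2 alone rose, from 10.30, 10.28 and 10.65 to 10.96, 10.86 and 10.97, by 0.52 ± 0.197 (limma, adjusted p = 0.042), while a second Mcm2 probe set was called the other way (-0.92), and over the mean of its probe sets Mcm2 differed by -0.20 (adjusted p = 0.32).

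In all, 1 gene was higher and 7 lower in these granulocyte lines, against 22% and 14% of all genes. With the line (origin and clone number together) as a block, 0 were higher and 7 lower, and Mcm2 was no longer called (adjusted p = 0.068, limma). Without clone 3 the count was 1 higher and 1 lower. Without clone 2 of passage 16 it was 1 higher and 15 lower, and without clone 1 or 2 of passage 4 it was 3 or 4. Fitted on the granulocyte groups alone, 0 genes were called by limma. Pluripotency markers fell in the same comparison, 6 of 9 lower and 0 higher.

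**Figure D4:**
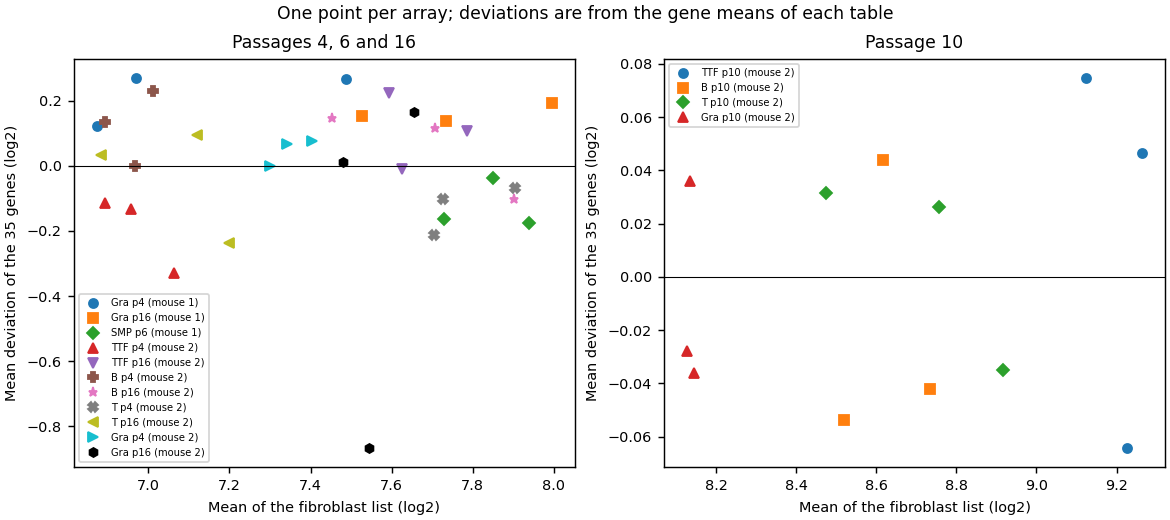
Mean over the 35 genes of their log2 difference from the gene's mean over its table (y axis) against the mean of the fibroblast marker list on the same array (x axis, log2), with 1 point per array and a colour and symbol per group, for passages 4, 6 and 16 (left) and passage 10 (right, on its own scales). Granulocyte clone 3 of passage 16 from mouse 2 lies alone at -0.868, while the other clones of its group lie at 0.01 and 0.16.

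In granulocyte lines of mouse 1, passage 16 against 4 gave 0 of 35 called by limma, where 0.855% of all genes were higher and 0.288% lower, and 2 had an unadjusted p under 0.05 (Cdc6 at -0.49, adjusted p = 0.39, and Kif11 at -0.57, adjusted p = 0.38). Whether the change differs between the mice was not tested.

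Granulocyte lines of passage 4 from mouse 1 were set against the skeletal muscle precursor lines of passage 6 from the same mouse, so origin and passage cannot be told apart. Tyms was 11.08, 10.94 and 10.13 in granulocyte clones and 9.45, 8.46 and 8.25 in muscle precursor clones, a log2 difference of 2.00 ± 0.302 (limma, adjusted p = 2.8e-05), or 4-fold. Diaph3 was 7.40, 6.80 and 6.68 against 5.49, 4.82 and 4.83, with 1.91 ± 0.215 (limma, adjusted p = 5.6e-07), or 3.77-fold. The clones of each side stayed apart by more than 0.5 in both genes.

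Ccnd2 was 9.61, 8.89 and 7.88 in granulocyte clones of mouse 1 against 7.68, 6.91 and 7.04 in muscle precursor clones, with 1.58 ± 0.349 (limma, adjusted p = 0.0015). The granulocyte clones spread widely but stayed above, and 2 of 6 Ccnd2 probe sets were called. Cdc6 was 9.27, 9.60 and 9.18 against 8.39, 8.18 and 8.21, with 1.09 ± 0.221 (limma, adjusted p = 0.00063). Ccne1 was 10.77, 10.91 and 10.27 against 9.87, 9.33 and 9.52, with 1.08 ± 0.213 (limma, adjusted p = 0.00051). For each of these genes all muscle precursor clones lay below all granulocyte clones.

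With Ccnd1 (0.88) and Mcm10 (0.43), 7 of 35 genes (20%) were higher in granulocyte lines and 0 lower, against 10.1% and 11.6% of all genes, with a list median of 0.25 against -0.06 over all genes. Ccnd3, by contrast, was 9.52, 9.45 and 9.56 in muscle precursor clones and 9.53, 9.33 and 9.13 in granulocyte clones (adjusted p = 0.64, limma). None of the mitotic kinase and S-to-M cyclin genes was called by limma. Of the other replication genes 9 of 33 were higher and 1 lower, led by Gins1 (1.17), Rfc5 (0.98) and Fen1 (0.92). The inhibitor genes Cdkn1a (-1.40, adjusted p = 3.2e-05) and Cdkn1b (-1.31, adjusted p = 0.00016) and the pocket protein gene Rbl2 (-1.64) were lower in granulocyte lines by limma. Fibroblast markers were higher in the muscle precursor lines, with 10 of 21 called and list means of 7.84 ± 0.106 and 7.11 ± 0.33 (SD, n = 3 each). With their mean as a covariate Cdc6 missed the threshold (1.05, adjusted p = 0.051), and Tyms, Diaph3 and Ccnd2 stayed called.

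The same starting cell from different mice was also compared. At passage 4, Ccnd2 was 7.19, 6.70 and 6.76 in the granulocyte clones of mouse 2 and 9.61, 8.89 and 7.88 in those of mouse 1. It was the single gene of 35 (2.86%) called, lower in mouse 2 by 1.91 ± 0.349 on the log2 scale (limma, adjusted p = 0.00093), or 3.77-fold, without overlap. Over all genes 4.43% were lower and 3.3% higher in mouse 2. Tyms (0.06), Diaph3 (0.26) and Ccne1 (-0.26) were not called, nor was any other gene of the list.

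By limma's F-test, 11 of the 35 genes (31.4%) separated the origins of mouse 2 at passage 10, where 32.2% of all 12394 genes did. The platform differs from that of passage 4, and no test was run across the passages. None of 11 replication and 3 nucleotide synthesis genes was called by limma. Tyms was represented there by a dim probe set (mean 5.34), since its bright one was not used at passage 10. Called were 3 of 4 G1 cyclins (Ccnd1, Ccnd2 and Ccne1), Ccnb2 of the 3 S-to-M genes, 4 of 7 mitotic kinase and checkpoint genes (Aurkb, Bub1, Bub1b and Ttk) and 3 of 7 chromosome genes (Top2a, Mki67 and Cenpa). Of 38 other mitosis genes 24 (63.2%) differed.

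Granulocyte lines at passage 10 combined lower Ccnd1, Ccnd2 and Ccne1 with higher levels of 9 genes of the S-to-M, mitotic and chromosome roles. Over all genes 21.1% were higher and 17.2% lower in these lines. Ccnd2 was 9.001, 8.88 and 8.60 in granulocyte clones and 9.86, 10.48 and 11.26 as the lowest, median and highest of the 9 others. Granulocyte clones lay below all others, with a log2 difference of -1.69 ± 0.155 (limma, adjusted p = 2.5e-05), or 3.22-fold, and all 7 Ccnd2 probe sets were called lower (-0.91 to -1.71). Ccnd1 was 11.18, 11.21 and 10.88 against 11.54, 11.86 and 12.08, with -0.77 ± 0.088 (limma, adjusted p = 6.5e-05). Ccne1 was 10.89, 10.94 and 10.67 against 11.13, 11.33 and 11.46, with -0.49 ± 0.0765 (limma, adjusted p = 0.00036). Neither gene overlapped between granulocyte and other clones.

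Cdc6 differed far less, at 10.31, 10.30 and 10.35 in granulocyte clones against 10.39, 10.50 and 10.54, with -0.16 ± 0.0503 (limma, adjusted p = 0.022), and it lost its call without any 1 of the granulocyte clones (adjusted p of 0.052 to 0.079). Mcm10 (-0.14, adjusted p = 0.033) was the other replication gene called lower by limma. Ccnd3 did not follow the other D cyclins, at 11.21, 11.19 and 11.07 in granulocyte clones and 0.17 above the rest (adjusted p = 0.058, limma).

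In the granulocyte lines 2 of 3 S-to-M genes, 4 of 7 mitotic kinase and checkpoint genes and 3 of 7 chromosome genes were called higher, each by less than a doubling, while Cdc20 (0.0016), Birc5 (0.0012), Aurka (0.05) and Plk1 (0.12) were among those not called. Aurkb, a kinase that corrects chromosome attachment, was 10.41, 10.37 and 10.53 in granulocyte clones and 9.73, 9.83 and 10.33 as the lowest, median and highest of the others, with 0.55 ± 0.0874 (limma, adjusted p = 0.00041). Bub1, a spindle checkpoint kinase, was 12.06, 12.04 and 12.16 against 11.38, 11.50 and 11.76, with 0.54 ± 0.0693 (limma, adjusted p = 0.00012). For both, the granulocyte clones lay above all others, though a dim second Bub1 probe set was called lower (-0.38) and over the mean of its probe sets Bub1 was at 0.08 (adjusted p = 0.37).

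Ccnb2, a cyclin of mitotic entry, was 12.24, 12.004 and 12.14 against 11.45, 11.66 and 11.94, with 0.47 ± 0.0697 (limma, adjusted p = 0.00026). Cenpa was 12.51, 12.31 and 12.57 against 11.91, 12.02 and 12.16, with 0.43 ± 0.0635 (limma, adjusted p = 0.00024). Mki67 was 12.18, 12.13 and 12.35 against 11.66, 11.81 and 11.91, with 0.43 ± 0.0604 (limma, adjusted p = 0.00019). In all 3 the granulocyte clones lay above the other 9. Top2a (0.25), Bub1b (0.30), Ttk (0.26) and Cdk1 (0.18) were also called higher, and of these only Cdk1 overlapped. With every probe set on its own, a second Ccna2 probe set was called higher (0.14, adjusted p = 0.041 by limma), while its brightest was at -0.13. A dim Kif11 probe set (mean 5.896) was called lower (-0.31, adjusted p = 0.037 by limma), while its brightest was at 0.17. Neither brightest probe set was called.

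In all, 9 of 35 genes were higher and 5 lower in granulocyte lines at passage 10 (40% called), against 21.1% and 17.2% of all genes, with a list median of 0.01. The list was thus called about as often as other genes. Of 38 other mitosis genes 22 were higher and 3 lower, led by the cleavage furrow gene Anln (0.57, adjusted p = 4.5e-05 by limma), Prc1 (0.54) and Hmmr (0.50). Other replication genes were split, 8 higher and 6 lower of 34. Rb1 (0.92) and Rbl2 (0.75) were higher, as were Cdkn1b (0.81) and Cdkn1a (0.63), and Cdkn2b was lower (-0.83). Fibroblast markers moved with the same arrays: their list mean was 8.14 ± 0.00841 (SD, n = 3) in granulocyte lines, below all other arrays of passage 10, and 19 of 24 markers were called lower and 0 higher. With that mean as a covariate, 0 of the 35 genes were called by limma in granulocyte lines, in TTF lines or among the 4 origins, with Ccnd2 at -0.59 (adjusted p = 0.75), Ccnd1 at -0.19 (adjusted p = 0.87) and Aurkb at -0.13 (adjusted p = 0.88). The covariate ran from 8.13 to 8.14 in granulocyte and from 9.12 to 9.26 in TTF arrays, with all B cell and T cell arrays between. It thus largely follows origin, and this fit cannot separate them well.

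**Figure D5:**
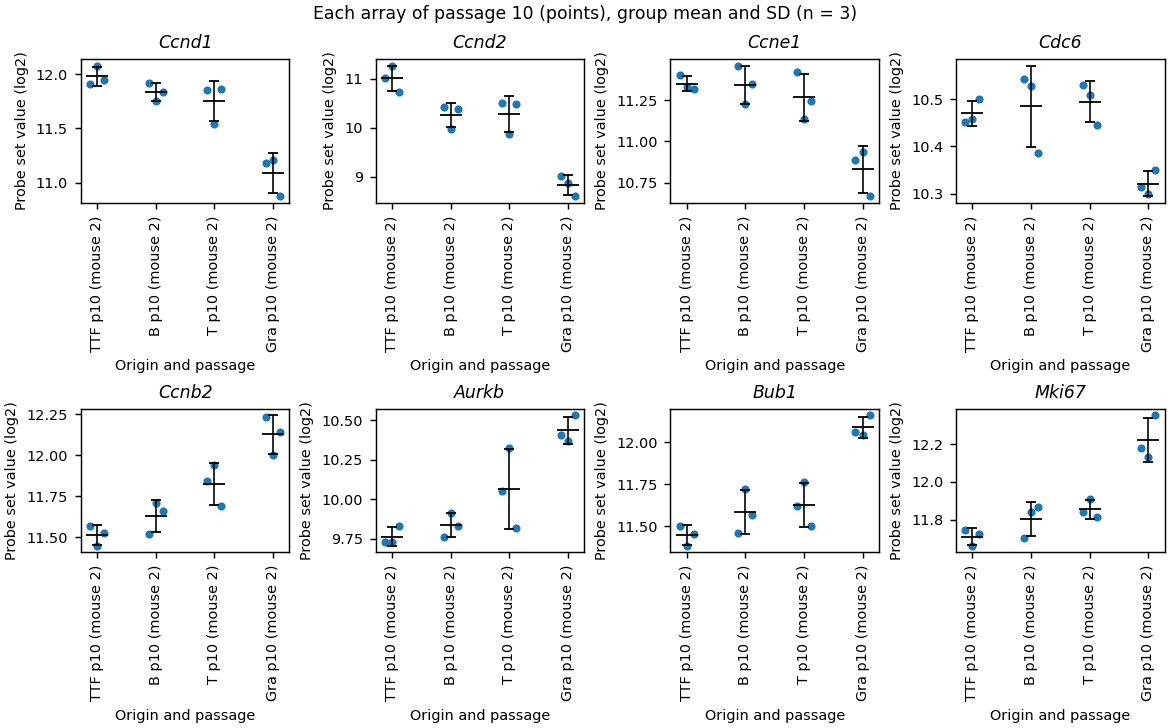
Log2 probe set value (y axis) of 8 genes on every array of passage 10, by origin (x axis), with 1 point per clone and bars for the group mean and SD (n = 3). The granulocyte clones lie lowest for Ccnd1, Ccnd2, Ccne1 and Cdc6 and highest for Aurkb, Bub1, Ccnb2 and Mki67.

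TTF lines at passage 10 lay at the other end. Ccnd2 was 11.02, 11.26 and 10.73 in TTF clones against 8.60, 9.97 and 10.51 as the lowest, median and highest of the others, above all of them, with 1.21 ± 0.155 (limma, adjusted p = 0.0019). Ccnd1 was 11.91, 12.08 and 11.95 and overlapped the highest B cell clone at 11.92, with 0.42 ± 0.088 (limma, adjusted p = 0.012). Ccnb2 (-0.35), Aurkb (-0.35), Bub1 (-0.32), Mki67 (-0.25) and Cenpa (-0.22) were called lower, so 2 of 35 genes were higher and 5 lower, against 5.3% and 8.46% of all genes. Without TTF clone 1 the count was 4 and without clone 2 it was 1. Of 38 other mitosis genes 10 were lower and 1 higher, Anln at -0.34 and Prc1 at -0.33 among them. Cdkn2b (0.86) and Cdkn2a (0.68) were higher. The fibroblast list mean was highest here, at 9.20 ± 0.0729 (SD, n = 3), with 19 of 24 markers higher and 0 lower. These contrasts share their arrays with those of the granulocyte lines.

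B cell and T cell lines at passage 10 showed no called gene of the 35 by limma, where almost no gene of the table was called either. For B cell lines 0.0161% of all genes were higher and 0.0484% lower, and 5 of the 35 had an unadjusted p under 0.05, with Ccnd1 at 0.23 (adjusted p = 0.35) and Aurkb at -0.25 (adjusted p = 0.31). For T cell lines 0.00807% were higher and 0.0161% lower, and 5 of the 35 had an unadjusted p under 0.05, with Pcna at 0.18 (adjusted p = 0.17) and Ccna2 at 0.16 (adjusted p = 0.18).

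The order of the origins differed between G1 cyclins and passages, which are on separate scales for passage 10. For Ccnd1, TTF lines had the lowest group mean of the 4 origins at passage 4 (8.37 ± 0.76, SD, n = 3) and the highest at passage 10 (11.98 ± 0.0875), and at passage 16, where the origins were not called, it was 10.04 ± 0.0934. At passage 4 the Ccnd1 means of T cell lines (9.42 ± 0.284) and granulocyte lines (9.62 ± 0.153) differed by less than the spread of the T cell clones, and B cell lines stood above both (10.07 ± 0.136). For Ccnd3, TTF lines were lowest at passage 4 (8.30 ± 0.464), and at passage 10 their mean of 10.90 ± 0.106 was again the lowest, though not called (adjusted p = 0.089, limma). For Ccne1 at passage 4, T cell lines were lowest (9.61 ± 0.212) and TTF lines next (10.08 ± 0.254).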

How the data were processed

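The deposited values are log2 probe set intensities, made by the authors with RMA per the submitters' processing notes, in 2 tables from different platforms. The RMA version, the probe annotation and any batch or date are not given in the sources used here, so a batch cannot be told apart from the groups. The gene of a probe set came from the platform annotation, and probe sets with several symbols were left unnamed (287 and 691). A gene was represented by its probe set of highest mean, which gave 11807 and 12394 genes. No filter on low values was used. With one that keeps genes above the median of the gene means, 34 of 35 and 32 of 35 of the genes described would pass (Diaph3 below in both tables, Tyms and Cenpe at passage 10).

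limma 3.58.1 in R 4.3.3 fitted 1 mean per group over all arrays of a table, with empirical Bayes variances and Benjamini-Hochberg adjustment over all its genes, and was tested on simulated data. The genes, the wider lists and the comparisons were chosen with earlier results of these data known. Named on every array were up to 4 called genes per direction whose sides did not overlap, by size (5 by range for F-tests), the G1 cyclins, Mki67, Pcna and Top2a wherever they bore on a comparison, and up to 3 called genes per wider list. Same-numbered clones of passages 4 and 16 deviated together in both granulocyte series (correlations of 0.169 to 0.384 in mouse 1 and 0.199 to 0.311 in mouse 2) and not in every pair of the other origins; the labels do not say that a number marks 1 line. Alternatives were other probe set choices, quantile and cyclic loess scaling, a filter on dim genes, fibroblast markers as a covariate, blocks, fewer groups and leaving out each array. The number of arrays limits the precision.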

Additional observations from a re-analysis of the deposited data

Results flagged for a closer look

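The effect of passage differed among the 4 origins of mouse 2 for 8 of 35 genes by limma's interaction test, adjusted over all genes. By the same test 32.8% of all genes differed, so the list was not called more often than other genes. The genes with the widest differences were Diaph3 (adjusted p = 6.8e-06), Tyms (adjusted p = 9.8e-05), Ccnd1 (adjusted p = 0.0016), Ccnd3 (adjusted p = 0.003) and Ccnd2 (adjusted p = 0.018). Tyms rose by 1.27 in TTF and 1.32 in T cell lines and was at -1.16 in granulocyte lines. Diaph3 rose by 1.81 in T cell lines and was at -0.81 in granulocyte lines. The Ccnd1 result is for its brightest probe set, and a dimmer one rose in both TTF (1.39) and T cell lines (1.40). Fibroblast markers also changed unequally among the origins (15 of 21 by the same test), and with their mean as a covariate 6 of the 35 genes were called.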

How the results depend on the processing

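Counts below are of the 35 genes called by limma. With the mean of the fibroblast markers as a covariate the count was 2 for TTF lines at passage 4, 2 for passage over the 4 origins, 1 for passage in TTF lines, 5 for passage in granulocyte lines of mouse 2, 1 for B cell lines at passage 10, and 0 for the origins, TTF lines and granulocyte lines at passage 10, where Aurkb turned to -0.13. Where this mean itself differs between the groups compared, as at passage 10, the fit cannot separate it well from origin or passage. Fitted on only the groups compared, it was 11 for TTF lines and 7 for T cell lines at passage 4, 0 for passage in granulocyte lines of mouse 2, 5 for the interaction, 16 for granulocyte lines against muscle precursors and 4 between mice. Cyclic loess gave 7, 8 and 8 for B cell, T cell and granulocyte lines at passage 4, 1 for passage in B cell lines, 14 for the interaction and 2 for the mice, and quantile scaling gave 8 for granulocyte lines at passage 4. The mean of probe sets gave 2 for B cell lines at passage 4 and 1 for passage in B cell lines, and turned Mcm2 in granulocyte lines to -0.20. The filter on dim genes, which tests fewer genes, gave 1 for passage in B cell lines, and 17 for the origins and 13 for TTF lines at passage 10. An alternative chosen after seeing the data, a fit without granulocyte clone 3 of passage 16, gave 11, 8, 7 and 9 for TTF, B cell, T cell and granulocyte lines at passage 4, 3 and 7 for passage in B cell and T cell lines, 12 for granulocyte lines against muscle precursors and 3 between mice. Where no cause is stated, the cause was not tested.

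Leaving out each array in turn gave 9 to 14 for the origins at passage 4, 4 to 9, 0 to 5, 2 to 4 and 4 to 6 for TTF, B cell, T cell and granulocyte lines there, and 0 to 5 for the origins at passage 16. It gave 7 to 12 for passage over the origins, 3 to 6 for passage in TTF lines of mouse 2, 0 to 1 in its B cell, 3 to 4 in its T cell and 2 to 16 in its granulocyte lines, 5 to 15 for the interaction and 5 to 8 for granulocyte against muscle precursor lines. At passage 10 it gave 8 to 11 for the origins, 1 to 9 for TTF lines and 10 to 15 for granulocyte lines. Counting each named value once for every array left out, 310 refits kept direction and call and 26 lost the call.

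Same-numbered clones of passages 4 and 16 correlated at over 0.1 in all 3 pairs of both granulocyte series. They did so in 9 of 15 pairs in all (median correlation 0.16). Clone numbers were thus read as possible pairs only for the granulocyte lines. The main fits paired no clones, and the block by line was built for every origin. A replicate block by clone number or line moved no count by over 1.5 times (13 against 12 for the origins at passage 4). With the line as block Mcm2 in granulocyte lines (adjusted p = 0.068) and Cenpa in T cell lines, whose numbers did not pair the samples (adjusted p = 0.091), were not called, and no other named call was lost.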
